A study of Mus musculus with 8 samples.

Results

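The arrays described here followed gene expression in naive mouse CD4+ T cells that were activated with control Ig, the comparator of a study on the Notch ligand Delta-like 4. They are the 4 arrays on which cells cultured with control Ig were hybridised, out of 8 arrays in all, and they stand for 3 samples out of 6: day 3 of the animal labelled mouse 1 (2 technical arrays), day 3 of the animal labelled mouse 2 (1 array), and day 1 of the animal labelled mouse 1 (1 array). Every sample came from CD4+ T cells of C57BL6/NCrl mice, sorted from lymph nodes and spleen as CD62L+, CD44-, CD25- and DX5-, so the starting cells had not met antigen. They were cultured with plate-bound anti-CD3e at 10 ug/ml, soluble anti-CD28 at 1 ug/ml and plate-bound control Ig at 5 ug/ml. The other 4 arrays carry cells with Delta4-Ig in place of control Ig, in the same layout, and are used here for the spread between mice, the check of the mouse labels and 1 comparison.

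Antibody to CD3 and to CD28 replaces the antigen and the co-stimulation that a naive T cell meets on a dendritic cell. In such cultures the cell first leaves quiescence, enlarges and makes early cytokines, and only then enters its first divisions, during which it also begins to take on a helper programme. Day 1 therefore usually samples cells before or near the first S phase and day 3 cells that have been dividing. Among the transcripts that follow these steps, genes of DNA replication are switched on by E2F factors ahead of genes of mitosis, which carry the CHR and CCAAT elements read by the DREAM and MuvB complexes and by NF-Y.

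Values are normalized log2 intensities of single probes, and a probe counted as detected where its detection p-value lay under 0.01. Of 25697 probes, 10788 were detected on at least 1 of the 4 arrays. They gave 7551 genes, each read from its brightest probe. A change in mouse 1 is the mean of its 2 day 3 arrays minus the day 1 array, and the mouse 2 difference is the day 3 array of mouse 2 minus that same day 1 array, since mouse 2 has no day 1 sample. A fold is written as at least N-fold where 1 side was not detected, against the lowest detected signal of that array, whereas counts of genes 2-fold apart use the measured values of all kept probes. Both differences share 1 day 1 array, and the second also holds any difference between animals. The 6 listed markers of CD4 T cells on the array (Cd3d, Cd3e, Cd3g, Cd4, Thy1 and Cd28) were detected on all 4 arrays, with a summed level of 72.0 to 73.4 at day 3 and 73.7 at day 1. Of the other cell types, Cd79a, Cd79b and Ms4a1 of B cells, Lyz2, Cd14 and Itgam of myeloid cells, Ncr1 and Klrb1c of NK cells and Cd8a of CD8 T cells were detected on none. Cd8b1 was detected on all 4, the macrophage gene Adgre1 only on the 2 day 3 arrays of mouse 1, and the NK gene Klrd1 on the day 3 array of mouse 2 and the day 1 array. Other listed B cell and myeloid genes were present: Cd74 (2.72 higher in mouse 1 and 0.93 in mouse 2) and Cst3 (1.57 and 1.71) were detected on all 4 arrays, H2-Ab1 on the 3 day 3 arrays and H2-Aa on 3 of the 4. H2-Eb1 and the NK gene Klrk1 were detected only at day 3 in mouse 2. The part of such cells in the results was not tested.

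The mouse labels did not hold for a gene of the Y chromosome. Eif2s3y read 4.78 and 4.59 on the day 3 arrays labelled mouse 1, where it was not detected, against 8.28 on the day 1 array that carries the same mouse number. It read 8.41 on the day 3 array labelled mouse 2. The Delta4-Ig arrays split in the same way, with 4.61 and 4.74 at day 3 in mouse 1 and 8.57 at day 3 in mouse 2, against 8.09 at day 1. Xist, which is made from an inactive X chromosome, was detected on all 8 arrays by each of its 2 probes. The 4 arrays with Eif2s3y thus held both genes, and whether a sample held cells of more than 1 animal was not tested. By Eif2s3y the day 1 samples lie with mouse 2, so the change in mouse 1 may not be a change within 1 animal. Mouse numbers below are those of the labels. Over all 25697 probes, 14 split the arrays as Eif2s3y does, with a gap over 2 log2 units between the sides and a range under 1.5 within each. Only 6 set day 3 of mouse 2 apart from the rest in that way, and 56 set day 3 apart from day 1.

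As planned, the main test had no term for the mouse, and the mouse number as a block was its alternative. In limma across all probes and all 6 samples, the fit with the 4 groups and no term for the mouse called 0 of 10788 probes between day 3 and day 1 (0%), and 685 had a p under 0.05 before adjustment, the smallest adjusted p being 0.218. With the mouse number as a block, as labelled, 440 probes passed an adjusted p of 0.05 (4.08%), 302 higher (2.8%) and 138 lower (1.28%). With the day 1 samples given the number 2, which was chosen after the values of Eif2s3y had been seen, 438 passed, 387 higher and 51 lower. In the text rose and fell are used only of genes that passed with the same sign in both blocked fits, and the adjusted p printed is the larger of the pair. This held for 154 genes that rose (2.04% of 7551) and 15 that fell (0.199%), against 236 (3.13%) and 86 (1.14%) with the block as labelled and 307 (4.07%) and 38 (0.503%) with day 1 numbered 2. All 169 were also at least 2-fold apart in both mice, but the fits draw on the same values, so this is no separate support. None of the 169 passed the planned main test without a term for the mouse. Each blocked fit keeps 1 residual degree of freedom, assumes that the single day 1 sample varies like day 3 and draws in part on the Delta4-Ig arrays. The 2-fold counts below do not use the mouse number of day 1, and they draw on the Delta4-Ig arrays only through the shared normalization.

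Day 3 differed from day 1 by at least 2-fold in both mice for 488 genes upward and 236 downward. In mouse 1, 764 genes were at least 2-fold higher at day 3 (10.1% of 7551) and 625 at least 2-fold lower (8.28%). The 488 make up 6.46% and the 236 make up 3.13%, and 9 genes passed the threshold in opposite directions. Of the 764 genes higher in mouse 1, 700 (91.6%) were also higher in mouse 2, and of the 625 lower ones 570 (91.2%) were also lower, where 72.8% of all genes had the same sign in both. Since both differences subtract the same day 1 array, part of this agreement is built in. At the size of 2-fold the directions parted: 63.9% of the higher genes but 37.8% of the lower ones reached it in mouse 2 as well. Of all 7551 genes 913 were at least 2-fold higher in mouse 2 than at day 1 and 603 lower. The technical arrays of mouse 1 differed with an SD of 0.273 over genes, and only 58 genes (0.77%) differed 2-fold between them. The mice differed at day 3 with an SD of 0.754, beside an SD of 0.922 for the change in mouse 1.

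**Figure D1:**
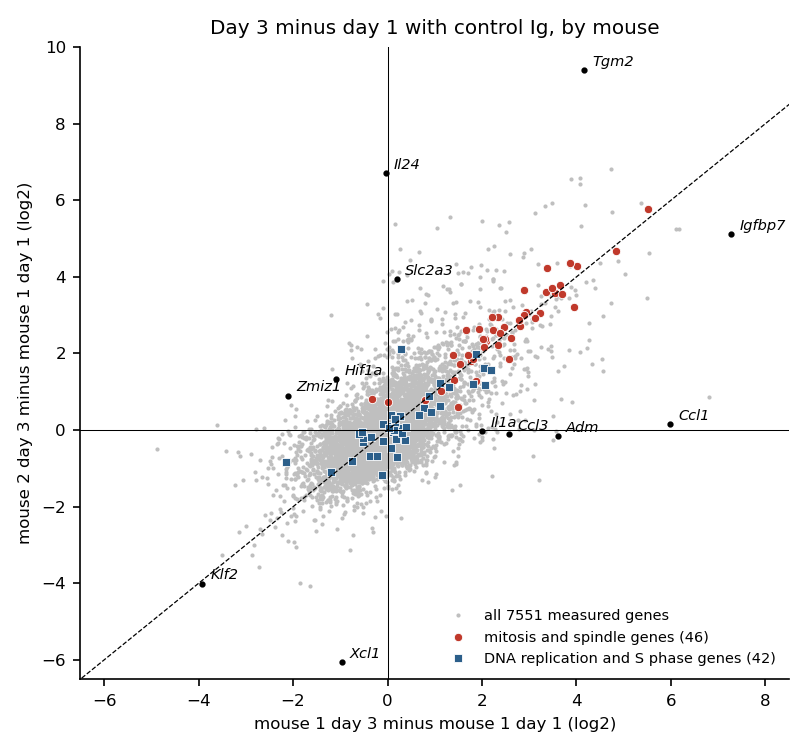
Day 3 minus day 1 of each measured gene with control Ig, in log2 units, in mouse 1 (horizontal) and in mouse 2 (vertical), both against the same day 1 array of mouse 1. Red circles are the 46 mitosis and spindle genes, which lie near the dashed line of equal values, blue squares the 42 DNA replication and S phase genes, which centre near 0, and black points are single genes marked by their symbols.

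The gene list with the highest median in mouse 1 was that of mitosis and spindle genes. Of 46 measured members, 42 were at least 2-fold higher at day 3 in both mice and none lower, 31 rose and none fell, beside 6.46% higher, 2.04% risen and 0.199% fallen of all genes. Their median change was 2.34 in mouse 1 and 2.61 in mouse 2, where that of all genes was -0.03 and -0.09. Of the 46, 38 were already detected at day 1.

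Nusap1, which bundles spindle microtubules, had the largest change of the list. It stood at 12.39 and 12.26 on the day 3 arrays of mouse 1 and 12.58 in mouse 2, against 6.81 at day 1. All 3 day 3 arrays lay far above the day 1 array, 45.7-fold in mouse 1 (adjusted p = 0.00401). Plk1, the polo-like kinase that drives entry into and exit from mitosis, read 12.10, 12.08 and 11.94 at day 3, against 7.25 at day 1, and was 28.5-fold higher in mouse 1 (adjusted p = 0.00496). Cdc20, the activator of the anaphase-promoting complex, read 12.54, 12.66 and 11.86 at day 3, against 8.64 at day 1, and all 4 of its measured probes had the same sign. Prc1, which holds the midzone of the anaphase spindle together, read 12.47, 12.26 and 12.88 at day 3, against 8.51 at day 1. Tpx2, an activator of Aurora A, was 16.2-fold higher in mouse 1 and 19.6-fold in mouse 2, and the depolymerising kinesin gene Kif2c 12.97-fold and 11.75-fold. The mice differed little in the kinase genes Aurka (3.54 in mouse 1 and 3.57 in mouse 2) and Cdk1 (2.46 and 2.69). The gap was wider for Cdc20 (3.96 and 3.22) and for the topoisomerase gene Top2a (2.33 and 2.96). Among the 15 members that did not pass, Ccna2, the cyclin of S phase and early mitosis, was detected on only 2 of the 3 day 3 arrays, at 6.52 on the first array of mouse 1 and 6.05 in mouse 2, and not at day 1 (4.74). Pttg1, which encodes the separase inhibitor securin, was the one member lower in mouse 1, by -0.33, and it was 0.81 higher in mouse 2, with detection on 1 of 3 day 3 arrays.

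DNA replication and S phase genes did not move with them. All 42 measured members were detected at day 1 and on every day 3 array. Their median change was 0.16 in mouse 1 and 0.06 in mouse 2. Of the members 7 were at least 2-fold higher in both mice and 1 lower, beside 6.46% and 3.13% of all genes. None had risen or fallen in both blocked fits. The 6 genes of cyclin E and of deoxynucleotide supply were higher in both mice, by 1.31 to 2.19 in mouse 1 and 1.12 to 1.98 in mouse 2. Ccne2, the cyclin that starts S phase, read 8.92, 8.92 and 8.31 at day 3, against 6.73 at day 1. Rrm2, the regulated subunit of ribonucleotide reductase, read 10.69, 10.74 and 10.30 at day 3, against 8.67 at day 1, and thymidylate synthase Tyms 11.83, 12.01 and 11.05, against 9.87. The adjusted p of Ccne2, Rrm2 and Tyms ran from 0.0365 to 0.0465 with the block as labelled, and none of the 6 passed with day 1 numbered 2. In the other direction lay the 6 subunits of the MCM helicase that unwinds DNA at the fork. All 6 were lower at day 3 in both mice, by -0.35 to -2.15 in mouse 1 and -0.18 to -1.09 in mouse 2, and none passed in both fits. Mcm7 passed downward with the block as labelled, and not with day 1 numbered 2. Mcm2 read 10.92, 10.90 and 11.01 at day 3, against 12.11 at day 1, and Mcm7 8.81, 8.59 and 10.03, against 10.85. These 2 subgroups were picked out after their values had been seen. The sliding clamp gene Pcna was 0.37 higher in mouse 1 and -0.27 in mouse 2. The difference between the mitosis list and the S phase list was given no test.

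**Figure D2:**
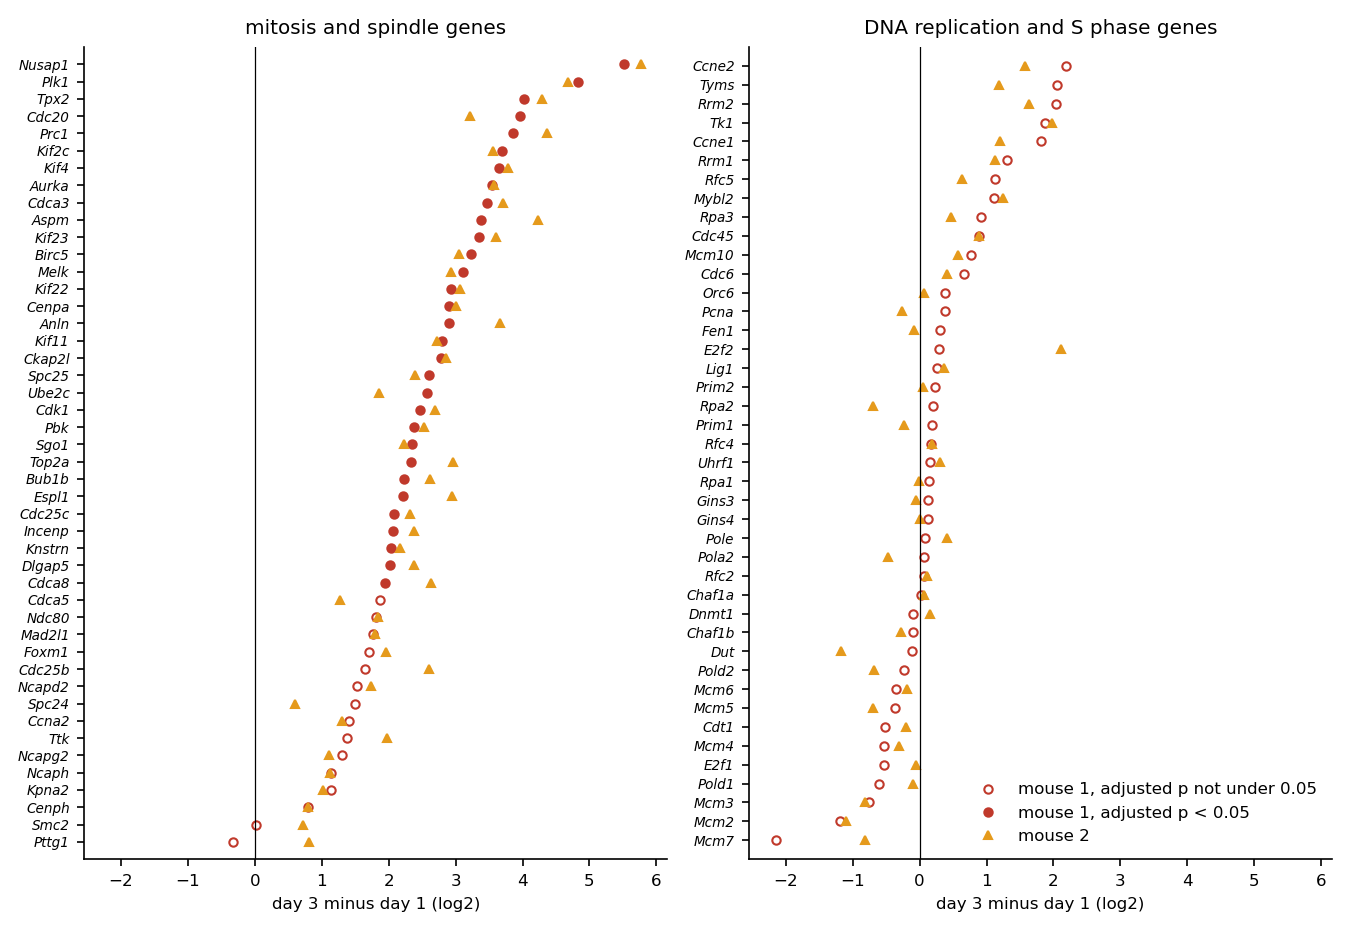
Day 3 minus day 1 with control Ig, in log2 units, for each of the 46 mitosis and spindle genes (left) and 42 DNA replication and S phase genes (right). Circles are mouse 1, filled where limma's adjusted p lay under 0.05 in both blocked fits, and triangles are mouse 2. Nearly the whole mitosis list lies to the right of 0, while the S phase list runs to both sides of it and has no filled circle.

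The promoters of both lists are shown because the members moved together in one list and not in the other. RefSeq promoters on GRCm38.p6, each from 250 bases before to 50 bases after the start, were found for 38 of the 46 mitosis genes (39 promoters) and 36 of the 42 S phase genes (45 promoters). They were searched on both strands for the CHR element, TTTGAA, for the CCAAT box bound by NF-Y, and for 4 words that E2F factors are known to bind. The first of these words is TTGGCGC, the second of them reads TTCCCGC, the third of them reads TTGCCGC, and the last one of the set reads TTCGCGC. Matches are in capitals, and overlapping matches run together. Plk1 lies at chr7:122159185-122159484 (plus strand), Cdc20 at chr4:118437294-118437593 (minus strand), Prc1 at chr7:80294201-80294500 (plus strand), Mcm2 at chr6:88898731-88899030 (minus strand) and Mcm3 at chr1:20820263-20820562 (minus strand), the last 2 of the S phase list. All are read in the direction of the gene.
Plk1: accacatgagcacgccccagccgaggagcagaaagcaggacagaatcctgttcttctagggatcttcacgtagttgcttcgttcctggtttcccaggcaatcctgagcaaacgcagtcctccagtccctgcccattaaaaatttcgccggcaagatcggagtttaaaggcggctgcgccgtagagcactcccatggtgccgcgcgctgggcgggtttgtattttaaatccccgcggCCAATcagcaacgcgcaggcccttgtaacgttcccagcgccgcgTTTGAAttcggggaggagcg
Cdc20: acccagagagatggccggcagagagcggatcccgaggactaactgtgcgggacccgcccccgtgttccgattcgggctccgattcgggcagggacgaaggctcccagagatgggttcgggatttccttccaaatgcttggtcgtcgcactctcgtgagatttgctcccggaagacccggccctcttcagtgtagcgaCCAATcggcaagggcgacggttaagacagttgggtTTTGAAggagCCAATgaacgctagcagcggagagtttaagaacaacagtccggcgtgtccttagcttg
Prc1: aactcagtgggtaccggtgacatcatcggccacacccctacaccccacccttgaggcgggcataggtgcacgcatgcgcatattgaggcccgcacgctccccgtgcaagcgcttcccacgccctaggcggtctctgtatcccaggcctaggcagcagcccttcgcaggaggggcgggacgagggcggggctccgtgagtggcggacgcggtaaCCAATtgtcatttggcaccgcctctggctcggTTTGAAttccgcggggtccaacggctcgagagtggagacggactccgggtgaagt
Mcm2: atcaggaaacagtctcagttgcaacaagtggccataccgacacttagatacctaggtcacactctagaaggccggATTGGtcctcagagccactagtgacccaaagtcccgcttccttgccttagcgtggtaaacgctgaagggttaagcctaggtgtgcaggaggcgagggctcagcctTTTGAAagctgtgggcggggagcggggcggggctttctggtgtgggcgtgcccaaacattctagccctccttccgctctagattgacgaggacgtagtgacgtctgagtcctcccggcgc
Mcm3: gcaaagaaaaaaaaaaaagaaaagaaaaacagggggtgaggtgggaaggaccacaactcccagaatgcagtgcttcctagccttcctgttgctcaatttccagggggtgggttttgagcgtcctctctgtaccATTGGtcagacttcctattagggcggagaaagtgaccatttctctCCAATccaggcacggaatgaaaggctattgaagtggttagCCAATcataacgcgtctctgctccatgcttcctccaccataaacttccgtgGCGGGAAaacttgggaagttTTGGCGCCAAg
The 3 mitosis promoters printed each hold a CHR and a CCAAT near the start, as does the Mcm2 window farther upstream, without an E2F word. The Mcm3 window holds CCAAT, no CHR and E2F words after the start, so the S phase examples differ between themselves. A CHR stood in 74.4% of mitosis promoters, in 15.6% of S phase promoters, in 11.9% of the promoters of all measured genes and in 17.9% of all 32851 promoters. CHR and CCAAT together stood in 61.5% of mitosis promoters, 11.1% of S phase promoters, 5.0% of those of measured genes and 7.0% of all. An E2F word stood in 15.4% of mitosis promoters, 53.3% of S phase promoters, 17.1% of those of measured genes and 9.6% of all. The window of Nusap1, the mitosis gene with the largest increase in mouse 1, holds none of these words and is not printed above. A match describes the sequence only, and these shares were given no test.

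Regulators of the G1 phase were mixed. Cdkn1a, the inhibitor p21 of cyclin-dependent kinases, rose among the largest increases of all, at 12.56, 12.35 and 11.50 at day 3, against 7.43 at day 1 (32.5-fold in mouse 1, adjusted p = 0.00496). It was 1 of 13 measured members to pass (2.04% of all genes rose). Of the 13, 4 were at least 2-fold higher in both mice (6.46% of all genes). The inhibitor genes Cdkn2c (1.14 and 1.21) and Cdkn2d (1.35 and 2.22) were among these 4. The D cyclin genes Ccnd1 (0.05 and -0.16), Ccnd2 (-0.74 and -0.60) and Ccnd3 (0.86 and 1.33) stayed within 2-fold in mouse 1. For Ccnd3 only 1 of 2 measured probes had this sign in mouse 1. Cdkn1a is also a target of p53. Of 14 measured p53 targets, 5 were at least 2-fold higher in both mice (6.46% of all genes) and 2 rose (2.04%), Cdkn1a and Gtse1, a microtubule-bound gene of G2 phase (3.60 and 3.11). Bbc3, which encodes the death protein PUMA, was 2.88 and 1.60 higher, and Mdm2, the ligase that removes p53, 0.88 and 0.76. Phlda3 was not detected at day 1 and was at least 9.48-fold higher in mouse 1 and 1.58-fold in mouse 2. At the median the p53 list stood at 1.46 (mouse 1) and 0.77 (mouse 2).

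Genes of naive and quiescent cells were lower at the median. Among genes at least 2-fold lower in both mice, the largest decrease in mouse 1 was that of Klf2 (chr8:72319062-72321654 on GRCm38.p6), the factor that keeps naive T cells quiescent and recirculating. It read 6.70, 6.60 and 6.57 at day 3, against 10.57 at day 1, which is 15.2-fold lower in mouse 1 and 16.1-fold in mouse 2. The 3 day 3 arrays lay close together (6.61 ± 0.06, SD, n = 2 mice), and the adjusted p was 0.0219 with the block as labelled and 0.0679 with day 1 numbered 2. Of 19 measured genes of naive and quiescent cells, 4 were at least 2-fold lower in both mice (3.13% of all genes) and none fell by both fits. The other 3 were Cd27, a co-stimulatory receptor of resting cells (-1.47 and -1.66), the forkhead gene Foxp1 (-1.31 and -1.89) and Igfbp4 (-1.39 and -1.70). Dapl1 was higher in both (1.27 and 1.73). Il7r, the receptor for the survival cytokine of resting cells, was -1.26 in mouse 1 and 0.78 in mouse 2. Both are against the same day 1 array, so this gives no direction of change within mouse 2. At the median the list stood at -0.87 (mouse 1) and -0.50 (mouse 2).

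**Figure D3:**
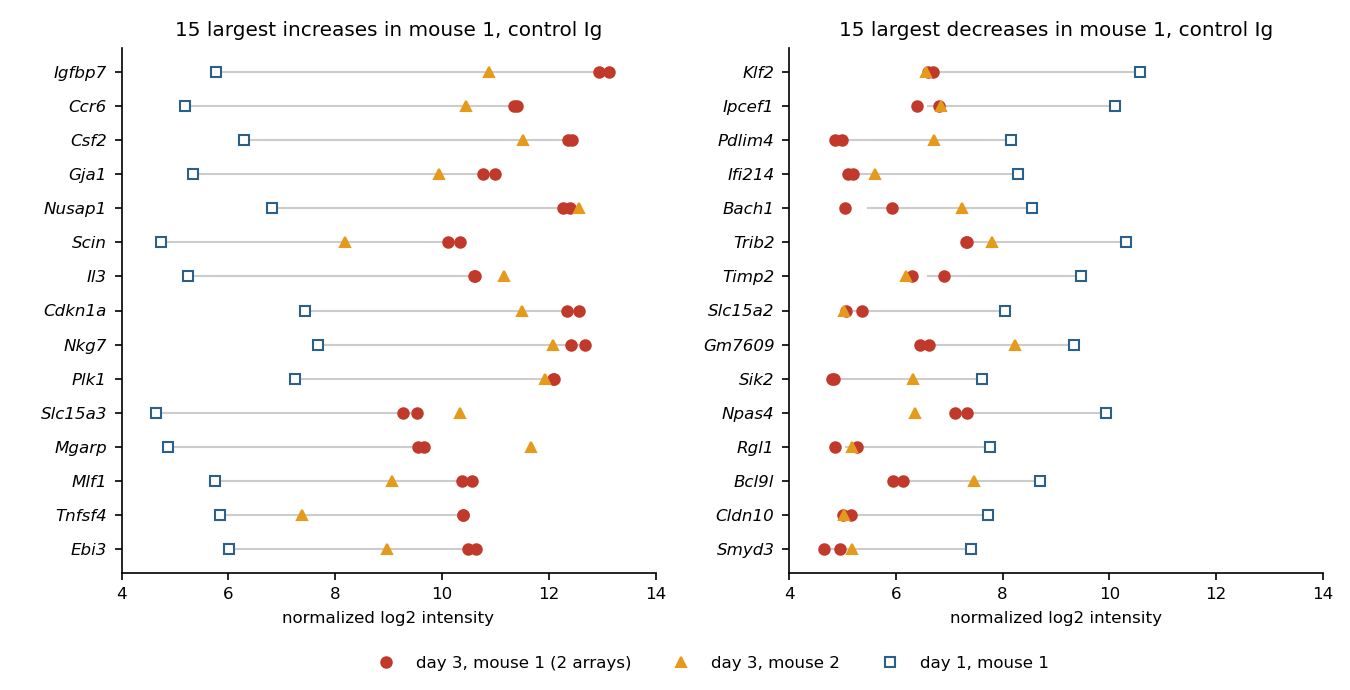
Normalized log2 intensity of the 15 genes with the largest increase (left) and the 15 with the largest decrease (right) in mouse 1 among genes at least 2-fold apart in both mice, with control Ig. Red circles are the 2 day 3 arrays of mouse 1, orange triangles day 3 of mouse 2, and open squares day 1 of mouse 1.

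The 15 largest increases, of which 11 rose, reached beyond the cell cycle. Igfbp7, a secreted binding protein of insulin-like growth factor, read 12.93, 13.14 and 10.87 at day 3 and was not detected at day 1 (5.77), so it was at least 112-fold higher in mouse 1 and at least 25-fold in mouse 2 (adjusted p = 0.00505). Ccr6, the chemokine receptor for CCL20, read 11.40, 11.34 and 10.45 at day 3 and was not detected at day 1 (5.20), at least 35.4-fold higher in mouse 1 and at least 18.7-fold in mouse 2 (adjusted p = 0.00401). Gja1, which encodes the gap junction protein connexin 43, read 10.99, 10.76 and 9.95 at day 3 and was not detected at day 1 (5.33), at least 25.1-fold higher in mouse 1. Ebi3, a subunit of the cytokines IL-27 and IL-35, rose, at least 20.2-fold in mouse 1 and 6.73-fold in mouse 2, and was not detected at day 1. Mlf1 was at least 18.9-fold and Mgarp at least 10.4-fold higher in mouse 1. The gelsolin family gene Scin, the peptide transporter gene Slc15a3 and Tnfsf4, the ligand of OX40, were each higher in both mice but passed only with the block as labelled, with a larger adjusted p of 0.0792, 0.0613 and 0.0822.

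Of the 15 largest decreases, 7 fell by both fits. Ipcef1 read 6.39, 6.81 and 6.85 at day 3, against 10.11 at day 1 (11.4-fold lower in mouse 1, adjusted p = 0.0087). Trib2, a pseudokinase gene, read 7.34, 7.32 and 7.81 at day 3, against 10.32 at day 1. Npas4, a factor induced within minutes of calcium entry, read 7.34, 7.11 and 6.37 at day 3, against 9.94 at day 1. Timp2, an inhibitor of matrix proteases, the peptide transporter gene Slc15a2, Rgl1 and the interferon-inducible gene Ifi214 also fell, and the last 3 were detected on none of the day 3 arrays, at least 3.24-fold, 2.70-fold and 3.86-fold lower in mouse 1. The other 8 were Klf2, Pdlim4, Bach1, Gm7609, Sik2, Bcl9l, Cldn10 and Smyd3, whose larger adjusted p ran up to 0.469 (Cldn10). The remaining 8 of the 15 genes that fell included Atp1b1, a sodium pump subunit (-2.38 and -2.53), Il6st, the shared receptor chain gp130 (-2.33 and -2.29) and Gpr83, a receptor gene of regulatory T cells (-1.99 and -2.93). Atp1b1 and Il6st were chosen for naming after their values were seen.

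Early cytokine and chemokine genes divided by animal. Csf2 (chr11:54247270-54249899), which encodes GM-CSF, and its neighbour Il3 (chr11:54265085-54267279) were higher in both mice. Csf2 read 12.44, 12.35 and 11.53 at day 3, against 6.28 at day 1, 69.3-fold higher in mouse 1, with an adjusted p of 0.0126 with the block as labelled and 0.0664 with day 1 numbered 2. Il3 read 10.60, 10.63 and 11.17 at day 3 and was not detected at day 1 (5.25), at least 20.9-fold and 30.8-fold higher, and it rose (adjusted p = 0.0418). Lif, a cytokine of the IL-6 family, also rose, and was not detected at day 1, so it was at least 4.61-fold higher in mouse 1 and 14.9-fold in mouse 2. Of 16 measured members 10 were at least 2-fold higher in mouse 1 and 4 in both mice, beside 10.1% and 6.46% of all genes. The list medians were 1.28 (mouse 1) and 0.17 (mouse 2). Ccl1, a chemokine for CCR8, read 10.66 and 10.60 at day 3 in mouse 1, but was detected neither at day 3 in mouse 2 (4.81) nor at day 1 (4.65). Ccl3, which encodes MIP-1 alpha, read 12.81 and 13.06 at day 3 in mouse 1, while mouse 2 at 10.27 stood level with day 1 at 10.37. Il1a was likewise detected on the 2 day 3 arrays of mouse 1 only. Xcl1, lymphotactin, read 10.76 and 10.73 at day 3 in mouse 1 and was not detected in mouse 2 (5.66), against 11.72 at day 1, at least 53.01-fold lower in mouse 2. With the block as labelled Ccl1, Ccl3 and Il1a passed upward although day 3 of mouse 2 lay near the day 1 array. None of them passed with day 1 numbered 2.

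**Figure D4:**
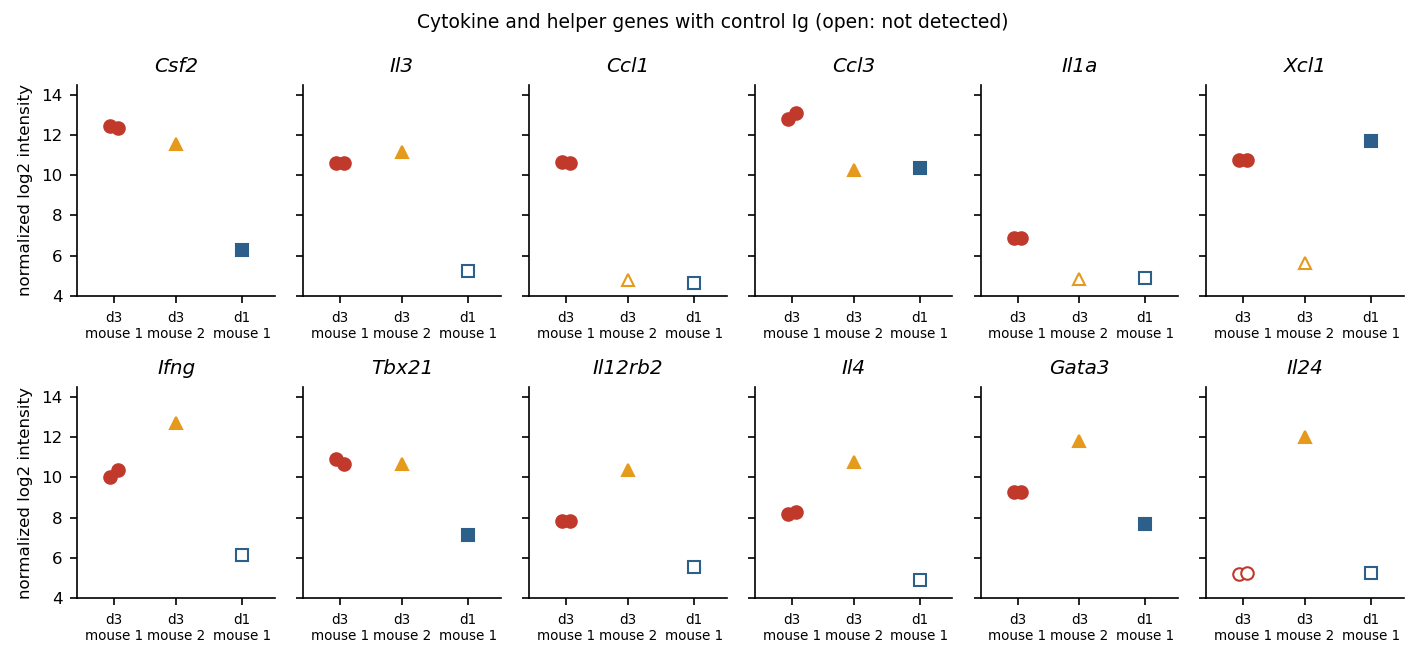
Normalized log2 intensity of 12 cytokine and helper genes with control Ig at day 3 in mouse 1 (2 arrays) and mouse 2, and at day 1 in mouse 1, with open symbols where the probe was not detected. Csf2, Il3, Ifng, Tbx21, Il12rb2, Il4 and Gata3 lie above day 1 in both mice, whereas Ccl1, Ccl3 and Il1a do so in mouse 1 only and Il24 in mouse 2 only.

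Most helper genes of the Th1 type were higher in both animals. Of 9 measured members 5 were at least 2-fold higher in both mice and 4 rose, beside 6.46% and 2.04% of all genes, with medians of 1.49 (mouse 1) and 1.37 (mouse 2). Tbx21, which encodes the Th1 factor T-bet, read 10.91, 10.68 and 10.69 at day 3, against 7.15 at day 1 (10.74 ± 0.07, SD, n = 2 mice, 12.5-fold in mouse 1, adjusted p = 0.00691). Ifng, the signature cytokine, read 10.04, 10.35 and 12.72 at day 3 and was not detected at day 1 (6.13), at least 15.6-fold higher in mouse 1 and 90.1-fold in mouse 2 (adjusted p = 0.0247). Ccl5 was at least 10.95-fold and 59.16-fold higher, and Il12rb2, the signalling chain of the IL-12 receptor, at least 3.01-fold and 17.5-fold. All 3 were higher in mouse 2 than in mouse 1 at day 3, while Tbx21 differed little between them. Il18r1 (1.03 and -1.15), a receptor of Th1 cells, had opposite signs in the mice, and Cxcr3 was 1.49 higher in mouse 1 and not detected at day 3 in mouse 2.

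Th2 genes were higher chiefly in mouse 2, and none of 6 passed. Il4 read 8.18 and 8.30 at day 3 in mouse 1 and 10.76 in mouse 2 and was not detected at day 1 (4.91), at least 4.03-fold and 23.1-fold higher, with an adjusted p of 0.243 with the block as labelled. Gata3, the Th2 factor that naive cells also express, read 9.28, 9.25 and 11.80 at day 3, against 7.67 at day 1. Il24 was detected on the day 3 array of mouse 2 alone, at 11.99, against 5.28 at day 1, and Il5 likewise at 7.17. At the median this list stood at 0.52 (mouse 1) and 3.37 (mouse 2). Of 5 measured Th17 and follicular helper genes Ccr6 rose, Il21 was detected only at day 3 in mouse 2 (7.02), and Bcl6, the follicular helper factor, was -0.81 in mouse 1 and -3.12 in mouse 2. Of 7 regulatory T cell genes Gpr83 fell and Nrp1 was 1.52 higher in both mice. Foxp3, which defines regulatory T cells, was -0.06 in mouse 1 and -1.05 in mouse 2, at 6.73, 6.55 and 5.65 against 6.70, close to the detection limit. Only 1 of its 2 measured probes had this sign in mouse 1.

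Among genes of cytotoxic granules 2 of 8 rose, beside 2.04% of all genes. Nkg7, a granule membrane protein, read 12.42, 12.67 and 12.09 at day 3, against 7.67 at day 1 (29.4-fold in mouse 1, adjusted p = 0.0063), and the granzyme inhibitor gene Serpinb6b 11.53, 11.51 and 12.75, against 7.43 (17.04-fold). Prf1, which encodes perforin, was -1.28 in mouse 1 and -0.16 in mouse 2. The NK marker Klrd1, not detected at day 3 in mouse 1, was at least 2.10-fold lower there and -0.24 in mouse 2.

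Of 21 measured surface genes of activation and co-stimulation 7 were at least 2-fold higher in both mice, none was 2-fold lower in both (6.46% and 3.13% of all genes), and Tnfrsf18, which encodes the co-stimulatory receptor GITR, rose (12.57, 12.46 and 12.87 at day 3, against 10.42 at day 1). Cd44, the adhesion receptor whose absence had defined the sorted cells, read 11.48, 11.53 and 11.15 at day 3, against 9.44 at day 1, and Cd83 11.44, 11.57 and 11.02, against 8.04. Both passed with the block as labelled and neither with day 1 numbered 2, where the adjusted p was 0.0795 for Cd44 and 0.246 for Cd83. Cd69, an early activation antigen, was lower in both mice (-0.98 and -1.02) and Il2ra, the high-affinity IL-2 receptor chain, differed little (0.19 and 0.90). Of 20 measured immediate early and early induced factors, Ier3 rose (1.96 and 3.69) and Npas4 fell. Batf (1.87 and 1.51), a partner of IRF4 in effector cells, and Nfil3 (1.48 and 4.11) were at least 2-fold higher in both mice, Fosl1, not detected at day 3, was at least 1.30-fold and 1.65-fold lower, and Myc was -0.72 in each. Of 16 feedback inhibitors Socs2, induced by STAT5, rose (11.49, 11.26 and 10.88 at day 3, against 8.15 at day 1, adjusted p = 0.013).

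Genes of ribosome production stood slightly lower at day 3. Of 32 measured nucleolar and ribosome biogenesis genes 31 were below day 1 in mouse 1 and all 32 in mouse 2. Their median was -0.48 and -0.85, beside -0.03 and -0.09 for all genes. With the block as labelled the median was -0.13, and the difference from the change with Delta4-Ig had a median of 0.82, beside 0.05 for all genes. Of the 32, 3 were at least 2-fold lower in both mice, beside 3.13% of all genes, and none passed in both fits. Ncl, which encodes nucleolin, read 11.83, 12.04 and 10.83 at day 3, against 13.46 at day 1 (2.87-fold lower in mouse 1 and 6.18-fold in mouse 2). Rrp1b was -2.14 and -1.01, and Tsr1 -1.07 and -1.19. The median over the 23 cytosolic ribosomal proteins lay at -0.14 (mouse 1) and -0.07 (mouse 2), and none was 2-fold different in mouse 1. The same held for the 33 oxidative phosphorylation subunits, with medians of 0.22 and -0.05.

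Of 13 measured fatty acid synthesis genes Scd1 and Scd2, the stearoyl-CoA desaturases, rose, beside 2.04% of all genes. Scd1 read 9.65, 9.77 and 11.40 at day 3 and was not detected at day 1 (5.52), at least 11.1-fold and 36.1-fold higher (adjusted p = 0.00831), and Scd2 read 9.39, 9.55 and 10.28, against 6.88. Cholesterol synthesis genes were 2-fold higher in mouse 1 for 6 of 16 (10.1% of all genes), and in both mice for none (6.46%). Among the 6 were Dhcr7 (1.54 and 0.45) and Cyp51 (1.42 and 0.34). Of 17 glycolysis genes 4 were 2-fold higher in both mice (6.46% of all genes) and none passed. Among the 4 were Tpi1 (1.63 and 1.76), where 2 of 3 probes shared the sign, and the glucose transporter gene Slc2a1 (1.21 and 1.77). Of 17 hypoxia response genes Mgarp and Egln3, an oxygen-sensing prolyl hydroxylase, rose, beside 2.04% of all genes. Both were higher in mouse 2 than in mouse 1. Egln3 read 9.60, 9.74 and 12.33 at day 3 and was not detected at day 1 (5.79). The angiogenic factor gene Vegfa was 1.46 in mouse 1 and 4.32 in mouse 2.

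Of 25 measured interferon-stimulated genes 9 were at least 2-fold higher in both mice, 1 lower and 3 rose, beside 6.46%, 3.13% and 2.04% of all genes, with medians of 0.81 (mouse 1) and 1.37 (mouse 2). Usp18, which removes ISG15 from proteins, read 9.52, 9.49 and 12.49 at day 3, against 7.14 at day 1 (adjusted p = 0.0226), and Isg15 itself 8.20, 8.37 and 10.38, not detected at day 1 (6.19). Ifih1, which encodes the RNA sensor MDA5, rose, and was not detected at day 1, so it was at least 2.80-fold higher in mouse 1 and 2.42-fold in mouse 2. Psmb9 and Psmb8, of the immunoproteasome, and the peptide transporter gene Tap1 were 1.26 to 1.73 higher in mouse 1 and 1.23 to 1.73 in mouse 2, without passing. Ifit3 was 2-fold lower in both mice, at -1.54 and -2.34, and Oas2 2-fold lower in mouse 1, where it was not detected at day 3. H2-Ab1, a class II chain that is counted here as a B cell marker, rose (7.71, 7.86 and 10.12 at day 3, not detected at day 1 at 5.81). Of the same list Cd74 was 2.72 higher in mouse 1 and 0.93 in mouse 2, while Cd79a, Cd79b and Ms4a1 were not detected. The class II chain gene H2-Aa was 0.36 in mouse 1 and -0.85 in mouse 2, where it was not detected at day 3. H2-Eb1 was -0.02 and 1.07, and was detected only at day 3 in mouse 2. The cells that gave the signal of these genes were not tested.

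The animals also differed from each other at day 3. Of the 7551 genes 575 were at least 2-fold higher in mouse 2 than in mouse 1 at day 3 (7.61%) and 411 lower (5.44%). With 1 mouse on each side and no day 1 sample of mouse 2, this has no test. Tgm2, transglutaminase 2, rose over day 1 and read 14.12 in mouse 2 and 8.74 and 9.001 in mouse 1. Slc2a3, a glucose transporter of high affinity, read 14.05 in mouse 2 and 10.31 and 10.29 in mouse 1. The arginine transporter gene Slc7a3 read 10.64 in mouse 2 and 7.18 and 6.86 in mouse 1, and Hif1a, the oxygen-regulated factor, 11.55 in mouse 2 and 9.19 and 9.05 in mouse 1, with day 1 between them at 10.21. Asns, asparagine synthetase, was 4.17 above day 1 in mouse 2 and 2.29 in mouse 1, and Chac1, which degrades glutathione and was not detected at day 1, was at least 32.9-fold higher in mouse 2 and 4.53-fold in mouse 1. In the other direction Bcl6 read 6.13 in mouse 2 and 8.61 and 8.28 in mouse 1, and Tnfsf4 7.38 in mouse 2 and 10.39 and 10.40 in mouse 1. Adm, adrenomedullin, was not detected in mouse 2 (4.65) and read 8.37 and 8.43 in mouse 1. Cd70, the ligand of CD27, was not detected in mouse 2 at day 3 (5.72), against 11.58 and 11.76 in mouse 1. It was not detected at day 1 (4.86), so it was at least 43.4-fold higher in mouse 1. Cd70 was chosen for naming after its values were seen.

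**Figure D5:**
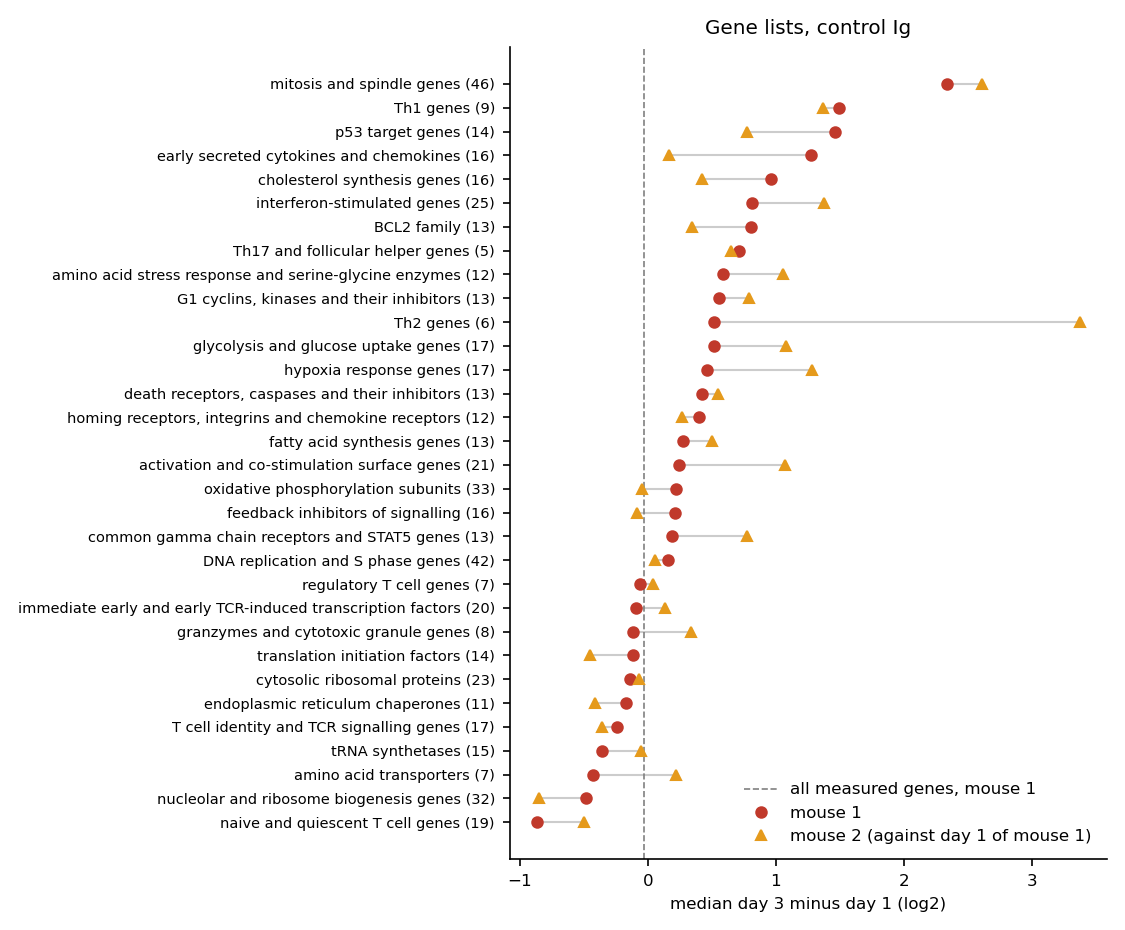
Median day 3 minus day 1 with control Ig, in log2 units, of the 32 gene lists with at least 5 measured members, whose number is in brackets. Circles are mouse 1 and triangles mouse 2, and the dashed line is the median of all measured genes in mouse 1 (-0.03). The mitosis list lies highest in mouse 1 at 2.34, and the Th2 list has the widest gap between the mice.

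The change over time with control Ig was set against that with Delta4-Ig in the same fit. No probe passed (0 of 10788, 0%) with or without the block: 51 had an unadjusted p under 0.05 without it and 364 with it, and the smallest adjusted p with it was 0.286. These probes had been kept by detection on a control Ig array, so probes detected only with Delta4-Ig were not among them. The 8 smallest p-values with a positive difference (control Ig change above Delta4-Ig change) included Ccr6 (difference 4.03), Slc1a2 (3.71), Dapl1 (3.26) and Isg15 (3.57). Those with a negative difference included Cxcr4 (-3.61), Gcnt1 (-4.42), Trib2 (-3.11) and Timp1 (-4.87). The sign does not say which change was larger in size, since Trib2 fell with control Ig. For the mitosis list the median of this difference was 0.37, beside 0.05 for all genes.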

How the data were processed

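RNA of 6 samples was hybridised to 8 arrays of 1 Illumina mouse BeadChip. Per the labels and the submitters' processing notes, which name GenomeStudio and limma, the authors deposited non-normalized probe intensities, a detection p-value per probe, and normalized log2 values. The deposited log2 values, used here, differed by at most 0.0417 from limma's neqc (offset 16) on the deposited intensities. Probes were named from the platform annotation: 23978 have 1 gene, 0 several and 1719 none. Control Ig arrays detected 8940 to 9950 probes, and the number of arrays limits the precision. Technical arrays were averaged, and groups were compared with limma 3.58.1 in R 4.3.3 (lmFit, eBayes, Benjamini-Hochberg), checked on simulated data. At day 3 the mouse 2 minus mouse 1 differences with control Ig and Delta4-Ig correlated at 0.606 across probes, which, with the labels, is the basis of the block. Nothing says that samples of a group were cultured apart beyond the mouse number.

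Named genes are the 15 largest increases and 15 largest decreases in mouse 1 that were 2-fold in both mice, the first and the most changed members of each list, the largest differences between the mice, and the smallest p-values against Delta4-Ig. Aurka, Ccna2, Ccnd1, Cdk1, Eif2s3y, Il2ra, Mdm2, Myc, Pcna, Psmb8, Tap1, Top2a and Xist were added after their values were seen. The 37 lists (742 genes, 538 measured) and the members were chosen with earlier results of these data known. For 1919 genes with several probes the brightest was used, and for 477 the probes differ in sign.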

Additional observations from a re-analysis of the deposited data

How the results depend on the processing

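The count of called probes depended on the mouse as a block. Without it 0 probes passed under each other setting fitted, with 1 (higher) as the exception when day 3 of mouse 1 was left out, so leaving out 1 replicate gave 0 to 1. With the replicate block the number was 440 (302 higher, 138 lower), 438 (387 and 51) with day 1 numbered 2, 433 (296 and 137) with neqc, 50 (48 and 2) without background correction, 298 (217 and 81) with the offset at 50, 693 (409 and 284) with scaling to the 75th percentile, 267 (182 and 85) among probes detected on all 4 arrays, 308 (232 and 76) with the first and 618 (374 and 244) with the second technical array, and 0 with no filter. Against Delta4-Ig, the block with 75th percentile scaling called 14 probes (3 higher, 11 lower). Genes 2-fold apart in both mice numbered 252 higher and 65 lower without background correction, 156 lower when the offset was 50, 287 and 127 among probes detected on all 4 arrays, 890 and 798 at 1.5-fold, and 265 and 44 at 3-fold. Counted in 1 mouse alone, by leaving out either replicate, they ranged from 764 to 913 higher and 603 to 625 lower. Of genes called with the block as labelled, 12 had the opposite sign in mouse 2. Of the 169 called in both blocked fits 0 did, which passing both fits largely sets in advance. With day 1 numbered 2, estimates called as labelled turned to -0.22 for Ccl3 (2.69 as labelled), -0.32 for Il1a (2.29), 0.20 for Klrd1 (-2.74) and 0.17 for Eif2s3y (-3.64). Of 1374 recomputed changes of the 143 named genes, 314 moved by more than the spread, as did 61 of 320 list medians. The spread here is the SD between the 2 mice. Among the recomputations, 1 put mouse 2 in place of mouse 1, which exceeds that SD by construction. It counts as moved for each of the 143 genes and 32 lists, so part of both counts was fixed in advance. Leaving out mouse 1 at day 3 in both stimuli, or fitting the block without the Delta4-Ig day 3 array of mouse 2, leaves no residual degree of freedom and was not run. With 1 day 1 sample, the spread at day 1 is unknown, and dim probes, undetected on 1 side, give bounds only.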

Other observations

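Histone genes, which no list held, were chosen after their values had been seen. Of 41 measured, 14 were at least 2-fold higher at day 3 in both mice, none was 2-fold lower in both, and 11 rose, beside 6.46%, 3.13% and 2.04% of all genes. Those 11 were higher by 2.21 to 3.89 in mouse 1 and 2.19 to 3.74 in mouse 2. The median of all 41 was 1.27 in mouse 1 and 0.18 in mouse 2. Replication-dependent histone genes have near-identical copies, so a probe may read more than 1 of them.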
